A study of Mus musculus with 12 samples.

Results

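NF-κB is a family of dimeric transcription factors that switch on inflammatory genes. The 10 genes described here encode its 5 subunits and 5 of its feedback inhibitors, and they were chosen by name from the 21834 genes of the deposited count table. The canonical subunits were Rela (p65), Rel (c-Rel) and Nfkb1 (p105, the precursor of p50). The non-canonical subunits were Relb and Nfkb2 (p100, the precursor of p52). The inhibitors were the IκB proteins Nfkbia (IκBα), Nfkbib (IκBβ) and Nfkbie (IκBε), the ubiquitin-editing enzyme Tnfaip3 (A20) and the ubiquitin ligase Birc3 (cIAP2). By the coordinates of the table (mm39 in the submitters' processing notes), Rela (chr19:5687511-5698158) and Nfkb2 (chr19:46292759-46300824) share a chromosome, as do Relb (chr7:19340142-19363363) and Nfkbib (chr7:28457676-28466937). Rel lies at chr11:23686847-23720970, Nfkb1 at chr3:135290416-135397308, Nfkbia at chr12:55536195-55539432, Nfkbie at chr17:45866629-45874095, Tnfaip3 at chr10:18876658-18891405 and Birc3 at chr9:7848700-7873187. All 10 passed the filter on low counts, which left 11626 genes for the tests.

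The libraries came from BV2, an immortalized mouse microglial line. Stable lines carrying a control shRNA (shCtrl) or 1 shRNA against Anxa2 (shAnxa2) in a lentiviral vector under puromycin selection were left untreated (CTRL) or taken through oxygen-glucose deprivation and reoxygenation (OGD/R), a culture model of ischemia and reperfusion. The deprivation lasted 4 h and the labels give 12 h of reoxygenation, whereas the study's methods give a longer reoxygenation for BV2 cells. Each of the 4 groups, shCtrl-CTRL, shCtrl-OGDR, shAnxa2-CTRL and shAnxa2-OGDR, had 3 libraries. The study asked whether Anxa2 acts on NF-κB signalling in microglia after OGD/R.

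In resting cells, IκB proteins hold canonical dimers in the cytoplasm. Signals from cytokine and Toll-like receptors activate IκB kinase, IκB is degraded, and the freed dimers enter the nucleus. Several of the genes then switched on are brakes on the same pathway, among them Nfkbia and Tnfaip3, and Birc3, Nfkb2 and Relb are also known targets. In the non-canonical branch, stabilized NIK (Map3k14) leads to processing of p100 to p52, which pairs with RelB. In microglia the pathway is known for driving cytokine, chemokine and nitric oxide production. The libraries measured RNA, so that protein level, phosphorylation and nuclear location are outside these data.

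Promoter sequence was examined because several of the 10 genes moved together. RefSeq windows of 300 bases around annotated start sites (250 bases before the start, GRCm38.p6) matched 8 of the 10 genes, and Relb and Nfkb1 had no window. The κB consensus, a degenerate 10-base motif, was searched on both strands with overlapping matches kept. The 8 genes have 11 windows, since Nfkb2 has 3 and Tnfaip3 has 2. Of these 11 windows, 7 held a match, against 2779 of all 32851 windows in the table (8.46%), and 2 of the Nfkb2 windows share a match because they overlap. The 7 windows belong to 5 genes (Rel, Nfkb2, Nfkbia, Nfkbie and Tnfaip3), and no match lay in the windows of Rela, Nfkbib and Birc3. Each line below gives 30 bases on the gene's strand, 5′ to 3′, with the matching bases in capitals. Where capitals run past 10 bases, overlapping matches were merged.
Rel, chr11:23771042-23771071, minus strand: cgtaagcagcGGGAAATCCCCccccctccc
Nfkb2, first start site, chr19:46304688-46304717, plus strand: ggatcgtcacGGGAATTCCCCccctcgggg
Nfkb2, first start site, chr19:46304716-46304745, plus strand: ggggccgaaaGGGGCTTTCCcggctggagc
Nfkb2, second start site, chr19:46305449-46305478, plus strand: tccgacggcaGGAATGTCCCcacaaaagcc
Nfkb2, second start site, chr19:46305695-46305724, plus strand: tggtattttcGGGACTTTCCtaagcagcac
Nfkbia, chr12:55492657-55492686, minus strand: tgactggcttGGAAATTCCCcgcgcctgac
Nfkbie, chr17:45555584-45555613, plus strand: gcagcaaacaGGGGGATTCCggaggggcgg
Tnfaip3, chr10:19015516-19015545, minus strand: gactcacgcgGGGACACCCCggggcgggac
Tnfaip3, chr10:19015403-19015432, minus strand: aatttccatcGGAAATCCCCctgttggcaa

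A match is a string of letters and not a bound site. Among the 5 genes with a match, Rel moved little, and Nfkbie differed between the lines but was called for OGD/R in neither. Nfkb2, Nfkbia and Tnfaip3 moved strongly. Birc3, without a match in its window, had one of the strongest movements of the 10 genes. The Nfkbia match sat at positions -29 to -20 from the start site, with the start as 0, and the nearer Tnfaip3 match at -12 to -3.

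The count table summed to 19521877 to 27288843 counts per library. Anxa2, the target of the shRNA, was at 172 ± 6.36 CPM (a gene's counts scaled by library size; mean ± SD, n = 3 in each group) in shCtrl-CTRL, 279 ± 24.3 in shCtrl-OGDR, 40.4 ± 4.86 in shAnxa2-CTRL and 19.6 ± 1.26 in shAnxa2-OGDR. This follows the shRNA given in the sample titles, by which libraries were grouped. It does not show which libraries within a line were treated. A second label field calls every OGD/R library a knockdown and every untreated library wild type, and goes against the Anxa2 levels. Averaged over genes, shAnxa2-OGDR libraries lay nearest to shCtrl-CTRL libraries (root mean square log2 distance 0.343) and shAnxa2-CTRL libraries nearest to shCtrl-OGDR libraries (0.373), beside 0.506 between shCtrl-CTRL and shCtrl-OGDR and 0.186 to 0.208 within groups. Exchanged treatment labels in either line cannot be told apart here from opposite responses to OGD/R in the lines, and this was not tested. All directions given below for OGD/R, and for the lines with and without it, rest on the treatment in the sample titles. Of 13 microglia and macrophage markers, 12 had a mean of at least 1 CPM, and the homeostatic factor Sall1 was at 0 in every library. The 13 summed to 2070 to 2256 CPM in shCtrl libraries and 1817 to 1943 CPM in shAnxa2 libraries. Most of this sum came from Csf1r, Cd68, Ptprc, Spi1 and Adgre1. Several others were low, with P2ry12 at 1.35 to 2.66 CPM, Aif1 at 1.99 to 6.20, Cx3cr1 at 2.67 to 6.35 and Tmem119 at 1.41 to 10.7 over all libraries. Astrocyte, neuron and fibroblast lists stayed under 1.5 CPM in sum. The 5 endothelial markers, almost all of it Kdr, summed to 167 to 171 CPM in shCtrl-CTRL, 61.3 to 68.1 in shCtrl-OGDR, 116 to 124 in shAnxa2-CTRL and 227 to 228 in shAnxa2-OGDR, with Cldn5, Pecam1 and Tek each under 1 CPM. The 5 oligodendrocyte markers, mostly Cnp, summed to 29.3 to 36.8 CPM. The part of these marker levels in the results below was not tested.

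Compared per kilobase of exon, which allows levels of different genes to be set side by side, Nfkbia was the most abundant of the 10 transcripts and Nfkbie the least in every group. In shCtrl-CTRL, Nfkbia stood at 64.2 ± 4.18 CPM per kb and Nfkb1 followed at 46.3 ± 1.69. Rela (23.9 ± 1.88) and Nfkbib (21.8 ± 0.906 CPM per kb) came next, and their libraries overlapped. Below them stood Nfkb2 at 17.4 ± 0.844, Rel at 11.5 ± 0.377 and Tnfaip3 at 8.29 ± 0.221 CPM per kb. Relb (6.73 ± 0.404) and Birc3 (6.52 ± 0.0477 CPM per kb) overlapped, and Nfkbie was at 1.60 ± 0.290. Precision was lowest for Nfkbie, which had 84 to 214 raw counts per library.

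**Figure D1:**
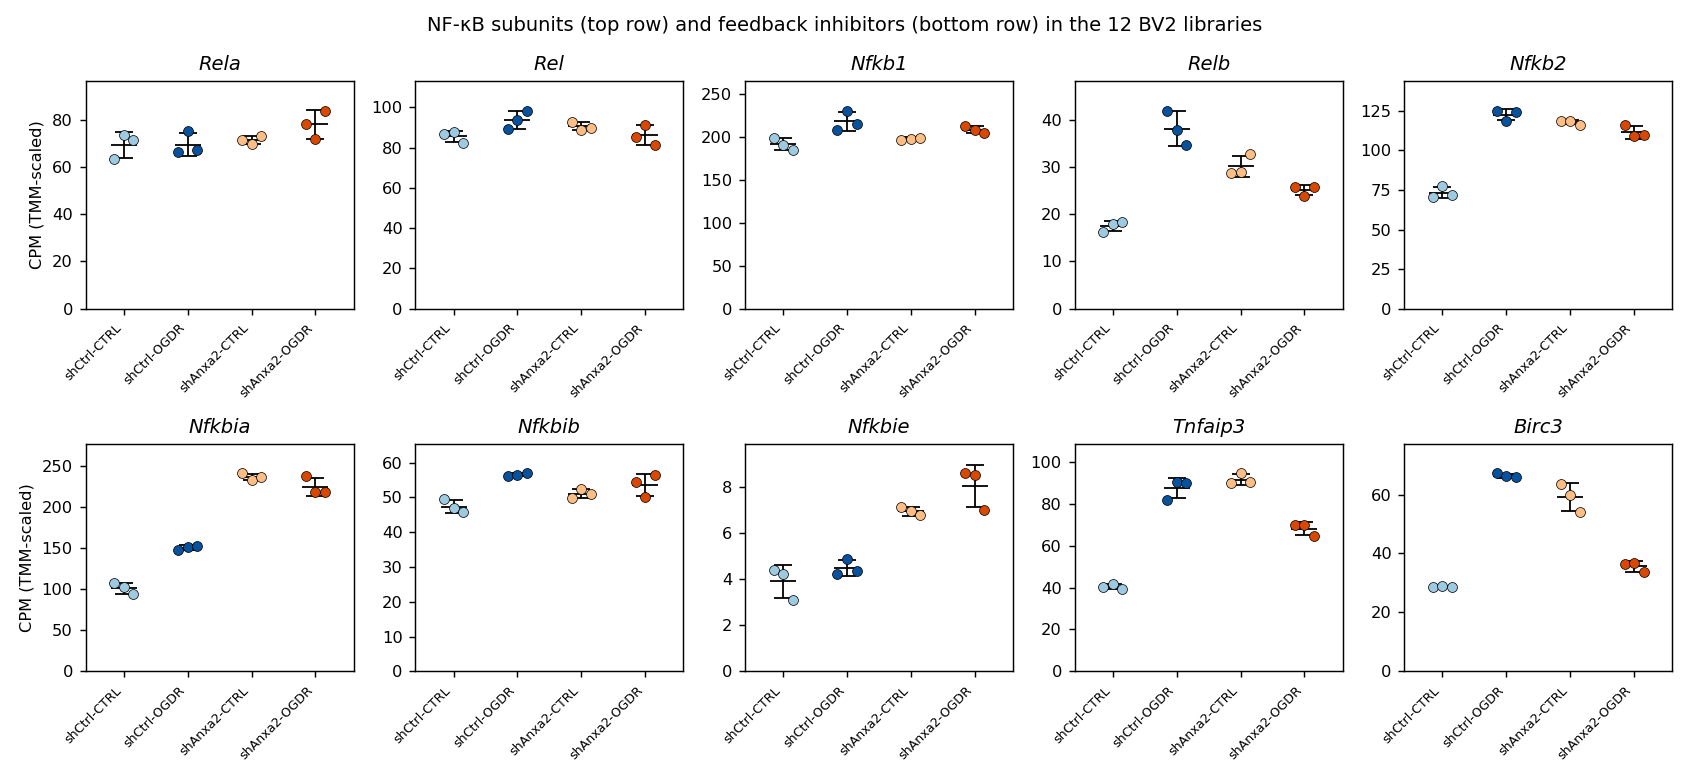
TMM-scaled CPM (vertical axes from 0) of the 5 subunits (top row) and the 5 feedback inhibitors (bottom row). Points are the 3 libraries of each group and bars are mean ± SD. Rela, Rel, Nfkb1 and Nfkbib stay nearly level, Relb, Tnfaip3 and Birc3 are high in shCtrl-OGDR and shAnxa2-CTRL, and Nfkbia and Nfkbie lie higher in both shAnxa2 groups.

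The canonical subunits barely moved. Rela, the main activating subunit, was at 63.3, 73.7 and 71.4 CPM in shCtrl-CTRL, 66.3, 75.3 and 67.3 in shCtrl-OGDR, 71.7, 70.0 and 73.2 in shAnxa2-CTRL and 78.5, 71.9 and 84.0 in shAnxa2-OGDR. The 4 groups overlapped, and the 2 highest libraries were shAnxa2-OGDR. With OGD/R in shCtrl cells the Rela log2 fold change was 0.003 (95% interval -0.13 to 0.14). After OGD/R, Rela in shAnxa2 cells exceeded that in shCtrl cells by 0.16 on the log2 scale (SE 0.0651, adjusted p = 0.0293; every adjusted p here is from the quasi-likelihood test of edgeR, adjusted by Benjamini-Hochberg over all genes). That call was lost without any 1 of shCtrl-OGDR 1 (adjusted p = 0.158), shCtrl-OGDR 3 (0.0995), shAnxa2-OGDR 1 (0.0625) and shAnxa2-OGDR 3 (0.197, by edgeR).

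Rel, which encodes the c-Rel subunit, was at 86.8, 87.8 and 82.5 CPM in shCtrl-CTRL, 89.3, 93.8 and 98.4 in shCtrl-OGDR, 92.8, 89.0 and 90.0 in shAnxa2-CTRL and 85.5, 91.4 and 81.4 in shAnxa2-OGDR. It rose with OGD/R in shCtrl cells by 0.13 on the log2 scale (SE 0.0522, adjusted p = 0.0339 by edgeR) and, between the lines after OGD/R, was lower in shAnxa2 cells (log2 fold change -0.12, SE 0.0527, adjusted p = 0.0449). The first call was lost without shCtrl-CTRL 1 or 3 or shCtrl-OGDR 2 or 3 (adjusted p = 0.0571 to 0.158 by edgeR). The second was lost without any 1 of 6 libraries (shCtrl-CTRL 1, shCtrl-OGDR 2 or 3, shAnxa2-CTRL 2, shAnxa2-OGDR 1 or 3) and by DESeq2 (adjusted p = 0.0569).

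Nfkb1, which gives p50, was at 199, 190 and 185 CPM in shCtrl-CTRL and 208, 230.2 and 215 in shCtrl-OGDR, groups that did not overlap. The rise was 0.19 on the log2 scale (SE 0.0477, adjusted p = 0.00139 by edgeR), or 1.14-fold. In shAnxa2 cells Nfkb1 was at 196, 198 and 199 CPM untreated and 212, 208 and 204 after OGD/R (log2 fold change 0.07, SE 0.0479, adjusted p = 0.199 by edgeR). A further gene model, Gm43430, overlaps Nfkb1 on the same strand.

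The non-canonical subunits moved by a larger amount. Relb, the partner of p52, was at 16.3, 18.0 and 18.3 CPM in shCtrl-CTRL, 41.9, 37.9 and 34.6 in shCtrl-OGDR, 28.8, 28.9 and 32.8 in shAnxa2-CTRL and 25.7, 23.8 and 25.8 in shAnxa2-OGDR. No 2 of the 4 groups overlapped, and shCtrl-OGDR was the highest. OGD/R raised Relb 2.18-fold in shCtrl cells (log2 fold change 1.12, SE 0.0801, adjusted p = 1.43e-11 by edgeR) and lowered it in shAnxa2 cells (log2 fold change -0.27, SE 0.0804, adjusted p = 0.0065). The fall in shAnxa2 cells missed the threshold without shAnxa2-CTRL 3 (log2 fold change -0.20, adjusted p = 0.055 by edgeR). In bulk RNA, fewer cells expressing a gene and less RNA per cell cannot be told apart.

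Nfkb2, which gives p52, was at 70.7, 77.4 and 71.9 CPM in shCtrl-CTRL, 125, 118 and 124 in shCtrl-OGDR, 119, 119 and 116 in shAnxa2-CTRL and 116, 109 and 109 in shAnxa2-OGDR. Untreated control cells were the low group, and the other 3 groups lay close together. The rise with OGD/R in shCtrl cells was 1.67-fold (log2 fold change 0.74, SE 0.0487, adjusted p = 3.34e-12 by edgeR), and in shAnxa2 cells the log2 fold change was -0.08 (95% interval -0.18 to 0.02). Without OGD/R, shAnxa2 cells had 1.61-fold more Nfkb2 (log2 fold change 0.69, SE 0.0488, adjusted p = 2.22e-11 by edgeR). After OGD/R it was slightly lower (log2 fold change -0.14, SE 0.048, adjusted p = 0.0144). The annotated spans of Psd and of a non-coding RNA overlap that of Nfkb2 on the opposite strand, and the strand setting of the counting is not given in the sources used here, so reads in the shared bases could come from either gene.

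Among the IκB genes, Nfkbia and Nfkbie separated the lines. Nfkbia, the inhibitor resynthesized after each round of activation, was at 107, 102 and 94.3 CPM in shCtrl-CTRL, 147, 152 and 152 in shCtrl-OGDR, 241, 233 and 236 in shAnxa2-CTRL and 237, 218 and 218 in shAnxa2-OGDR. Every shAnxa2 library lay above every shCtrl library, and the shAnxa2 groups overlapped each other. The line difference was 2.34-fold without OGD/R (log2 fold change 1.23, SE 0.0516, adjusted p = 1.51e-15 by edgeR) and 1.49-fold after it (log2 fold change 0.58, SE 0.0508, adjusted p = 4.37e-10). OGD/R raised Nfkbia 1.49-fold in shCtrl cells (log2 fold change 0.57, SE 0.0517, adjusted p = 8.9e-10 by edgeR), and in shAnxa2 cells the log2 fold change was -0.08 (95% interval -0.18 to 0.03).

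Nfkbie, the least abundant IκB transcript here, was at 4.39, 4.21 and 3.09 CPM in shCtrl-CTRL, 4.23, 4.89 and 4.36 in shCtrl-OGDR, 7.14, 6.93 and 6.75 in shAnxa2-CTRL and 8.57, 8.51 and 6.99 in shAnxa2-OGDR. The lines did not overlap, and within each line the treatments did. Nfkbie was higher in shAnxa2 cells by 0.83 on the log2 scale without OGD/R (SE 0.143, adjusted p = 2.22e-05 by edgeR) and by 0.84 after it (SE 0.14, adjusted p = 1.13e-05). Its response to OGD/R was 0.21 on the log2 scale in both lines and was called in neither (adjusted p = 0.225 and 0.185 by edgeR).

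Nfkbib, a more constitutive IκB, was at 49.5, 46.8 and 45.7 CPM in shCtrl-CTRL, 56.1, 56.6 and 56.9 in shCtrl-OGDR, 49.9, 52.4 and 51.1 in shAnxa2-CTRL and 54.3, 50.2 and 56.5 in shAnxa2-OGDR. It rose 1.19-fold with OGD/R in shCtrl cells (log2 fold change 0.26, SE 0.0568, adjusted p = 0.000392 by edgeR), and the line differences were not called. The annotated spans of Ccer2 and Sirt2 overlap that of Nfkbib on the opposite strand, with the same limit as for Nfkb2.

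Tnfaip3 and Birc3 changed direction between the lines. Tnfaip3, which removes activating ubiquitin chains from signalling adaptors, was at 40.4, 41.6 and 39.4 CPM in shCtrl-CTRL, 82.0, 90.6 and 89.9 in shCtrl-OGDR, 89.8, 94.5 and 90.3 in shAnxa2-CTRL and 70.0, 70.1 and 64.4 in shAnxa2-OGDR. The groups did not overlap, except that shCtrl-OGDR and shAnxa2-CTRL did. OGD/R raised Tnfaip3 2.16-fold in shCtrl cells (log2 fold change 1.11, SE 0.0555, adjusted p = 2.65e-14 by edgeR) and lowered it in shAnxa2 cells (log2 fold change -0.43, SE 0.0541, adjusted p = 4.92e-07).

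Birc3, a ligase of the TNF receptor complex that also marks NIK for degradation, was at 28.5, 29.0 and 28.7 CPM in shCtrl-CTRL, 67.2, 66.4 and 65.8 in shCtrl-OGDR, 63.5, 59.9 and 54.1 in shAnxa2-CTRL and 36.5, 36.9 and 33.6 in shAnxa2-OGDR. No 2 groups overlapped. The rise in shCtrl cells was 2.31-fold (log2 fold change 1.21, SE 0.0627, adjusted p = 4.95e-14 by edgeR) and the fall in shAnxa2 cells was -0.73 on the log2 scale (SE 0.063, adjusted p = 1.19e-09). Birc2, its neighbouring paralog, was looked at after its values were seen because reads may be split between the pair, and it was called in the same directions (log2 fold changes 0.49 and -0.49).

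**Figure D2:**
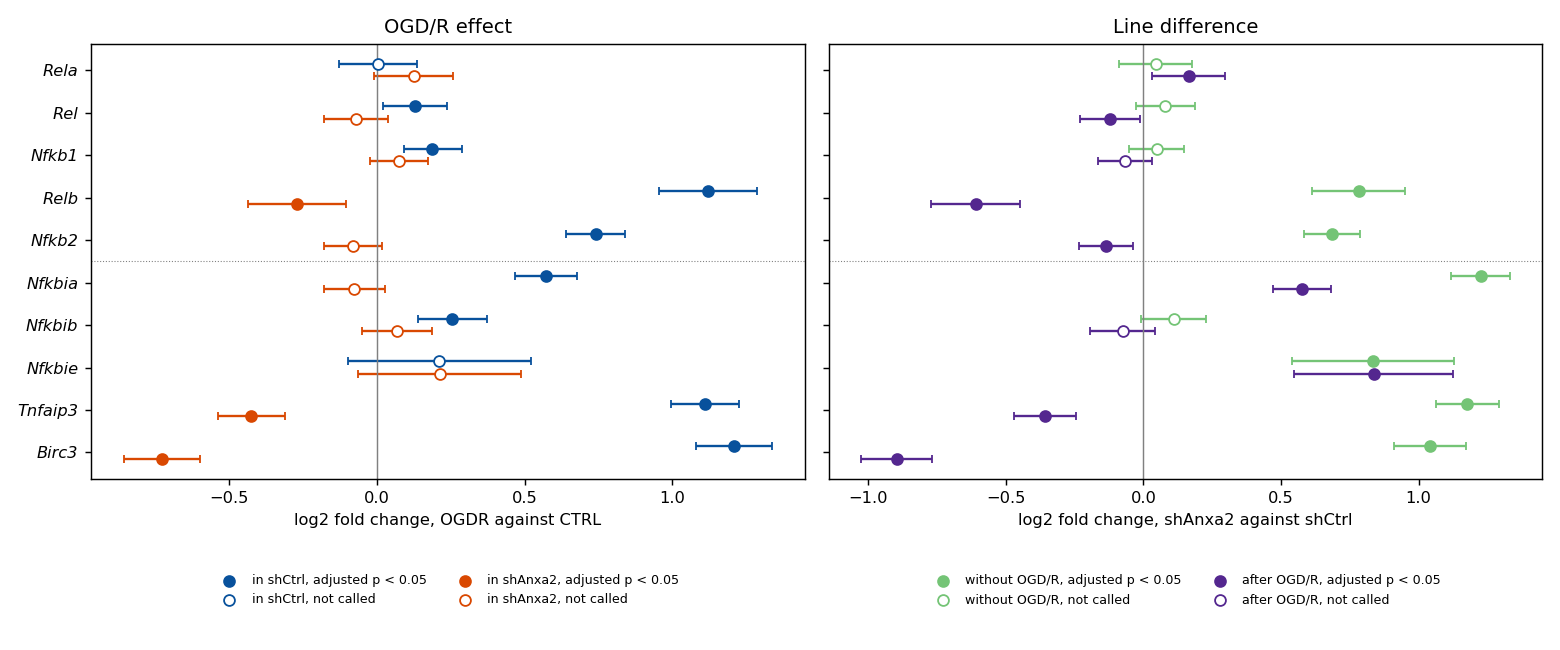
Fitted log2 fold changes with 95% intervals of the 10 genes, OGDR against CTRL in each line (left) and shAnxa2 against shCtrl without and after OGD/R (right). Filled points passed an adjusted p of 0.05 in edgeR's quasi-likelihood test. Relb, Tnfaip3 and Birc3 lie on opposite sides of 0 in the 2 lines and in the 2 treatments, and Nfkbia and Nfkbie lie above 0 in both line comparisons.

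Counted together, 8 of the 10 genes rose with OGD/R in shCtrl cells and 0 fell, beside 32.4% of all genes tested rising and 31% falling. The count of 0 was the same at an unadjusted p and with DESeq2. At a fold of at least 1.5 as well, 4 genes (Relb, Nfkb2, Tnfaip3 and Birc3) passed, beside 20.1% of all genes. The median log2 fold change was 0.19 over the subunits, 0.57 over the inhibitors and 0.005 over all genes tested.

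With OGD/R in shAnxa2 cells, 0 of the 10 rose and 3 fell (Relb, Tnfaip3 and Birc3), beside 28.2% and 26.8% of all genes. The 0 was the same at an unadjusted p and with DESeq2, but without shAnxa2-OGDR 2 Rela was called higher (log2 fold change 0.18, adjusted p = 0.0401 by edgeR). Only Birc3 passed the added 1.5-fold limit, which 12.1% of all genes passed. The share that fell was thus close to that of all genes. Medians were -0.07 over the subunits and -0.08 over the inhibitors on the log2 scale.

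Without OGD/R, 6 genes had a higher level in shAnxa2 cells and 0 a lower one, beside 29.5% and 29.7% of all genes, again with 0 at an unadjusted p and with DESeq2. The 6 were both non-canonical subunits and the inhibitors Nfkbia, Nfkbie, Tnfaip3 and Birc3. Each exceeded 1.5-fold, as 15.6% of all genes did. The median was 0.08 on the log2 scale over the subunits and 1.04 over the inhibitors.

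After OGD/R, 3 genes were higher in shAnxa2 cells (Rela, Nfkbia and Nfkbie) and 5 were lower (Rel, Relb, Nfkb2, Tnfaip3 and Birc3), beside 33.8% and 34.2% of all genes. At 1.5-fold or more, 3 passed (Relb, Nfkbie and Birc3), beside 26.3% of all genes. The log2 fold change was -0.36 for Tnfaip3 (SE 0.0541) and -0.90 for Birc3 (SE 0.0624). The medians, -0.12 over the subunits and -0.08 over the inhibitors, cover opposite movements within each set. The 4 comparisons share groups, so they are not independent of one another.

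The interaction, the OGD/R log2 fold change in shAnxa2 cells minus that in shCtrl cells, was below 0 and called for 7 of the 10 genes and above 0 and called for 0, beside 35.1% and 34.9% of all genes. The count above 0 was also 0 at an unadjusted p and with DESeq2. It was largest for Birc3 (-1.94, SE 0.0889, adjusted p = 2.34e-15 by edgeR), followed by Tnfaip3 (-1.54, SE 0.0775) and Relb (-1.39, SE 0.113). Nfkb2 (-0.82, SE 0.0685) and Nfkbia (-0.65, SE 0.0721) came next. At 1.5-fold or more, 5 of the 10 were called, beside 41.8% of all genes, so the share past that size was close to the background. The smaller calls were Rel (-0.20, adjusted p = 0.0191 by edgeR, lost at 0.06 without shCtrl-OGDR 3) and Nfkbib (-0.19, adjusted p = 0.0438). The Nfkbib call was lost without any 1 of 8 libraries (adjusted p = 0.0549 to 0.109 by edgeR), namely shCtrl-CTRL 2 or 3, shCtrl-OGDR 2 or 3, shAnxa2-CTRL 2 or 3 and shAnxa2-OGDR 1 or 2. The interaction was not called for Rela (0.12, 95% interval -0.07 to 0.31), for Nfkb1 (-0.11, -0.25 to 0.03; adjusted p = 0.135 by edgeR, called at 0.0392 without shCtrl-OGDR 1) or for Nfkbie (0.00, -0.41 to 0.42).

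Ratios within a library do not depend on how libraries are scaled. Per kilobase of exon, the ratio of Nfkb2 to Nfkb1 was 0.375 ± 0.0256 in shCtrl-CTRL, 0.552 ± 0.0445 in shCtrl-OGDR, 0.584 ± 0.0117 in shAnxa2-CTRL and 0.524 ± 0.0120 in shAnxa2-OGDR (mean ± SD, n = 3). The ratio of Relb to Rela was 0.282 ± 0.00814, 0.613 ± 0.0800, 0.469 ± 0.0269 and 0.358 ± 0.0146 in the same order. Relb and Nfkb2 together made up 22.8% ± 0.676 of summed subunit transcripts in shCtrl-CTRL, 32.9% ± 1.94 in shCtrl-OGDR, 31.8% ± 0.133 in shAnxa2-CTRL and 28.9% ± 0.453 in shAnxa2-OGDR. The non-canonical share was thus lowest in untreated control cells.

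The IκB transcripts summed to more, relative to the subunits, in shAnxa2 cells. Nfkbia was 2.94 ± 0.0889 times Nfkbib per kilobase in shCtrl-CTRL, 3.66 ± 0.0448 in shCtrl-OGDR, 6.37 ± 0.263 in shAnxa2-CTRL and 5.76 ± 0.395 in shAnxa2-OGDR. The 3 IκB transcripts summed to 0.828 ± 0.0522 of the 5 subunit transcripts in shCtrl-CTRL and 0.927 ± 0.0205 in shCtrl-OGDR, against 1.42 ± 0.0210 in shAnxa2-CTRL and 1.36 ± 0.0385 in shAnxa2-OGDR. This ratio was thus lower in every shCtrl library than in every shAnxa2 library. Whether it lies under or over 1 depends on the exon lengths used, so the value 1 has no meaning of its own. Most of the IκB sum was Nfkbia, at 73.2% in shCtrl-CTRL, 77.4% in shCtrl-OGDR, 85.0% in shAnxa2-CTRL and 83.5% in shAnxa2-OGDR. Over 7 such ratios and 4 comparisons, 28 exact two-sided permutation tests were run, and 26 reached p = 0.1 (0.108 after Benjamini-Hochberg adjustment), the smallest value that 3 against 3 libraries allow. The others were Nfkb2 to Nfkb1 between the lines after OGD/R (exact permutation p = 0.4) and summed IκB to subunits with OGD/R in shAnxa2 cells (exact permutation p = 0.2). The design cannot reach 0.05 on these ratios. The 28 tests share genes and groups, so they are not separate results, and ratios of other genes were not tested for comparison.

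**Figure D3:**
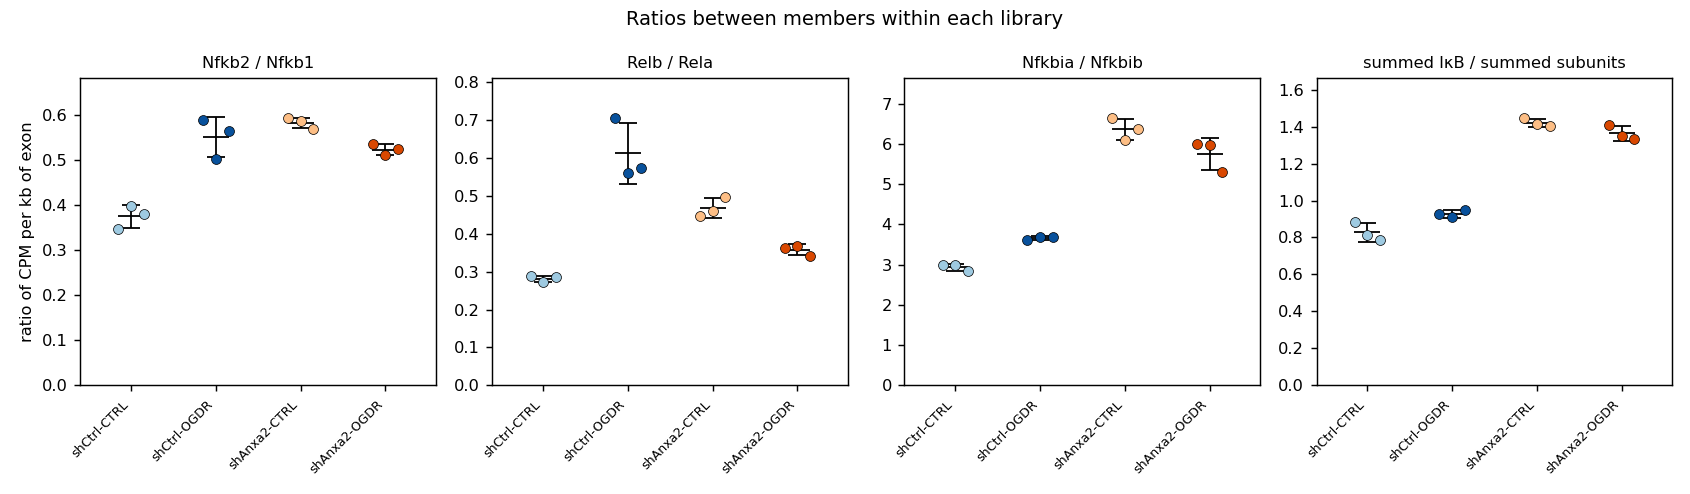
Ratios of CPM per kilobase of exon within each library (vertical axes from 0). Points are the 3 libraries of each group and bars are mean ± SD. The Nfkb2 to Nfkb1 and Relb to Rela ratios are lowest in shCtrl-CTRL. The ratio of the 3 summed IκB transcripts to the 5 summed subunits is lower in shCtrl libraries than in shAnxa2 libraries.

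As a description over the 12 libraries, which share their 4 groups, log2 CPM of Nfkb2 and Tnfaip3 had a Pearson r of 0.96, Nfkbia and Nfkbie 0.92, and Relb and Birc3 0.92. Rela had r between -0.41 and 0.48 with the other 9 genes. Searched against 9516 genes of at least 5 CPM on average, Nfkb2 was most like Tmem176b (r = 0.986), Fam20c (0.978) and Zc3h12c (0.972). Nfkbia was most like Ralgds (0.982), Fam167b (0.981) and Fxyd2 (0.977). The nearest genes to Rela were Dnmt3b (0.905), Mon1b (0.877) and Rnf44 (0.851).

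The rest of the pathway was read from a list of 65 genes, of which 61 were tested. With OGD/R, 28 of them rose and 15 fell in shCtrl cells, and 14 rose and 25 fell in shAnxa2 cells. Between lines, 29 were higher and 12 lower in shAnxa2 cells without OGD/R, and 22 were higher and 22 lower after it. All genes tested rose and fell in shares of 32.4% and 31% with OGD/R in shCtrl cells and 28.2% and 26.8% in shAnxa2 cells. The 28 that rose in shCtrl cells and the 25 that fell in shAnxa2 cells were larger shares of the 61 than among all genes. The 15 that fell in shCtrl cells and the 14 that rose in shAnxa2 cells were somewhat smaller shares. For the line difference, all genes were higher and lower in shares of 29.5% and 29.7% without OGD/R and 33.8% and 34.2% after it. The 22 higher and 22 lower of the 61 after OGD/R were close to these last shares. The medians on the log2 scale were 0.15 and -0.08 for OGD/R in shCtrl and shAnxa2 cells and 0.20 and -0.07 for the line difference without and after OGD/R.

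The atypical IκB gene Nfkbiz (IκBζ, a nuclear co-activator of secondary response genes) was high in the same 2 groups as Tnfaip3. It was at 61.5, 60.2 and 57.7 CPM in shCtrl-CTRL, 173, 185 and 164 in shCtrl-OGDR, 188, 179 and 189.9 in shAnxa2-CTRL and 103, 97.9 and 97.0 in shAnxa2-OGDR. Its interaction was -2.45 on the log2 scale (SE 0.072, adjusted p = 9.95e-19 by edgeR), larger in size than that of any of the 10 genes. Nfkbid, another atypical IκB gene, went the other way (log2 fold changes with OGD/R of -0.41 in shCtrl and 0.42 in shAnxa2 cells).

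Of 11 kinases, 6 rose and 2 fell with OGD/R in shCtrl cells, and 2 rose and 6 fell in shAnxa2 cells, beside 32.4% and 31% of all genes in shCtrl and 28.2% and 26.8% in shAnxa2. Ikbke (IKKε) rose by 1.53 on the log2 scale in shCtrl cells and had -0.73 in shAnxa2 cells, both called. Map3k14 (NIK), which starts processing of the Nfkb2 product, ran opposite to Nfkb2 and Relb in shCtrl cells. It was at 17.3, 18.5 and 17.4 CPM in shCtrl-CTRL and 13.5, 12.1 and 12.1 in shCtrl-OGDR (log2 fold change -0.49, SE 0.0884, adjusted p = 3.39e-05 by edgeR), and at 12.6, 11.4 and 13.3 in shAnxa2-CTRL and 16.6, 18.8 and 17.6 in shAnxa2-OGDR (0.51, SE 0.0907, adjusted p = 4.89e-05).

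Of 18 adaptors and ubiquitin ligases, 8 rose and 4 fell with OGD/R in shCtrl cells, and 5 rose and 5 fell in shAnxa2 cells. Of all genes, 32.4% and 31% did so in shCtrl and 28.2% and 26.8% in shAnxa2, so that the adaptors were at the background in shAnxa2 cells. Traf3, which restrains NIK, had log2 fold changes of -0.43 and 0.50 with OGD/R in the 2 lines, and Myd88, the adaptor of Toll-like and interleukin-1 receptors, -0.86 and 0.79. Traf1 (1.65 and -1.04) and Irak3, a brake on that receptor complex (1.39 and -0.92), went the other way. All 8 of these changes were called, which the rule for naming genes required.

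Of 14 further brakes, 7 rose and 1 fell with OGD/R in shCtrl cells, 2 rose and 8 fell in shAnxa2 cells, and without OGD/R shAnxa2 cells had higher levels of 10 and a lower level of 1. The shares of all genes in the same order were 32.4% and 31%, 28.2% and 26.8%, and 29.5% and 29.7%. Zc3h12a, a ribonuclease that degrades inflammatory transcripts, was higher by 1.36 on the log2 scale in untreated shAnxa2 cells (SE 0.0662, adjusted p = 2.47e-14 by edgeR), and Tnip1, a partner of A20, by 0.94 (SE 0.0511, adjusted p = 1.63e-13). Tnip3, another A20 partner, had 0.80 with OGD/R in shCtrl and -0.72 in shAnxa2 cells, both called.

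The 15 ligands and receptors tested were mixed, 5 rising and 7 falling with OGD/R in shCtrl, and 4 rising and 5 falling in shAnxa2. Of all genes, 32.4% rose and 31% fell in shCtrl and 28.2% and 26.8% in shAnxa2, so the rising shares were close to the background. Tnf, the classic activating cytokine, was at 44.5, 52.5 and 46.1 CPM in shCtrl-CTRL, 25.2, 31.5 and 28.9 in shCtrl-OGDR, 81.7, 80.6 and 88.6 in shAnxa2-CTRL and 119, 107 and 98.1 in shAnxa2-OGDR. No 2 groups overlapped, and after OGD/R the lines differed in Tnf by 1.92 on the log2 scale, shAnxa2 above shCtrl (SE 0.0796, adjusted p = 6.13e-16 by edgeR). Il1a, an interleukin-1 cytokine, had log2 fold changes of 2.19 and -1.82 for OGD/R in shCtrl and shAnxa2 cells, both called. Il1b, another interleukin-1 cytokine, went the other way in shCtrl cells (-1.31, called) and was not called in shAnxa2 cells (0.23). After OGD/R the line difference was 2.39 for Il1b and -1.47 for Il1a, both called.

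Among 32 NF-κB target genes, 26 were tested. With OGD/R, 13 rose and 7 fell in shCtrl cells, and 5 rose and 12 fell in shAnxa2 cells. In shAnxa2 cells, 19 were higher and 2 lower than in shCtrl cells without OGD/R (median 0.83 on the log2 scale), and 15 were higher and 8 lower after OGD/R (median 0.46). The shares of all genes called in these directions were 32.4% and 31%, 28.2% and 26.8%, 29.5% and 29.7%, and 33.8% and 34.2%, in the same order. Nos2, inducible nitric oxide synthase, was at 2.38, 3.63 and 3.31 CPM in shCtrl-CTRL, 48.8, 57.2 and 58.2 in shCtrl-OGDR, 93.8, 87.6 and 81.5 in shAnxa2-CTRL and 8.47, 8.39 and 5.43 in shAnxa2-OGDR, high in the same 2 groups as Tnfaip3 and Birc3. The chemokine Ccl2 went against these genes in shCtrl cells, at 117, 111 and 123 CPM in shCtrl-CTRL and 36.1, 40.0 and 39.0 in shCtrl-OGDR (log2 fold change -1.61, SE 0.104, adjusted p = 2.46e-12 by edgeR).

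**Figure D4:**
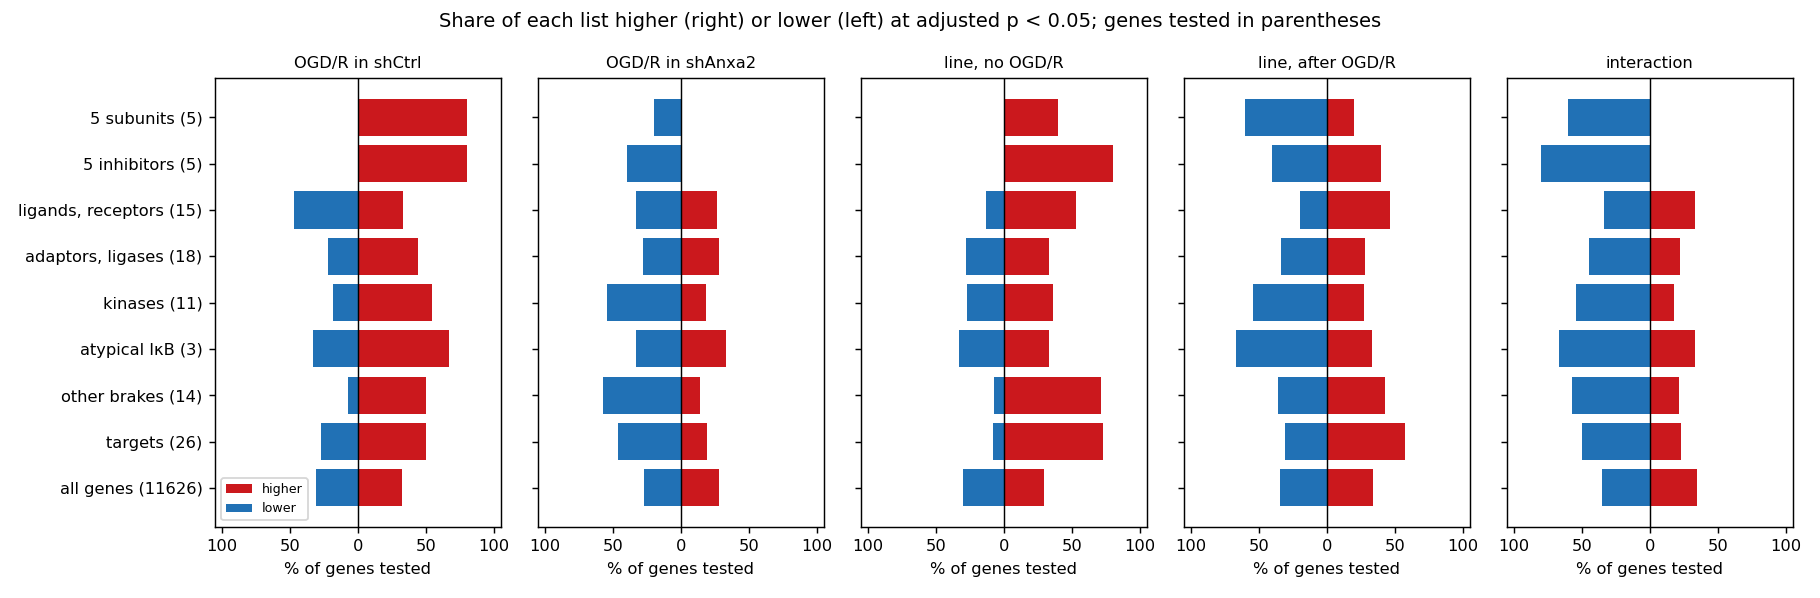
Percent of each gene list called higher (right of 0) or lower (left of 0) in the 5 comparisons, with the number of genes tested in parentheses and all genes tested in the bottom row. The subunits and inhibitors have bars only to the right for OGD/R in shCtrl cells (4 of 5 in each set). For OGD/R in shAnxa2 cells their bars lie only to the left (1 of 5 subunits and 2 of 5 inhibitors). These 3 of 10 were close to the 26.8% of all genes that fell. All genes split about evenly in both comparisons.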

How the data were processed

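Libraries of BV2 cells (kit: NEBNext Ultra RNA) were grouped by sample titles into 4 groups of 3. The authors deposited read counts per gene without normalization, and 12 further columns of normalized values were not used. The submitters' processing notes name HISAT2 2.0.4 and mm39, while the study's methods, written for hippocampal RNA, name TopHat and HTSeq. The study calls the 3 libraries biological replicates without saying that they were separate cultures, so p-values measure the spread between these libraries. Replicate pairs differed by more than counting error (chi-square per gene 3.89 to 12.66).

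The 11626 genes that reached 0.5 CPM in 3 or more libraries were tested with edgeR 4.0.16 in R 4.3.3 (TMM, 1 quasi-likelihood model of 4 groups, Benjamini-Hochberg adjustment). The steps were tested on simulated counts with far fewer changed genes than were called here, so that test does not cover changes this widespread. A standard error is the log2 fold change divided by the square root of F, or, for the interaction of Nfkbie, is taken from both OGD/R errors. CPM are TMM-scaled. Exon lengths and overlapping genes came from GENCODE M21 (GRCm38) and promoters from RefSeq. Permutation tests used scipy 1.17.1.

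Alternatives were median-of-ratios factors, no filter or 1 CPM, DESeq2 1.42.0, only the groups compared, a replicate block, each library left out and a 1.5-fold limit. Besides the 10 genes and Anxa2, the rule named the 2 called genes of largest log2 fold change per direction, list and comparison (mean at least 1 CPM), and the 3 genes most correlated with Nfkb2, Nfkbia and Rela. The members and lists were chosen with earlier results of these data known.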

Additional observations from a re-analysis of the deposited data

Results flagged for a closer look

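The response to OGD/R differed between the lines for 7 of the 10 genes by the interaction in edgeR's quasi-likelihood test. The log2 interaction was -1.938 for Birc3 (adjusted p = 2.34e-15), -1.536 for Tnfaip3 (1.32e-14), -1.391 for Relb (8.89e-11), -0.822 for Nfkb2 (1.29e-10), -0.65 for Nfkbia (1.96e-08), -0.202 for Rel (0.0191) and -0.186 for Nfkbib (0.0438). Of all genes, 35.1% had a called interaction in this direction and 34.9% in the other. Counted in either direction, 7 of 10 was thus close to the share of all genes. Relb, Tnfaip3 and Birc3 were called in opposite directions in the 2 lines, whereas Nfkb2 and Nfkbia were called in shCtrl cells and not in shAnxa2 cells.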

How the results depend on the processing

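Apart from the 1.5-fold limit, Relb, Nfkb2, Nfkbia, Tnfaip3 and Birc3 kept direction and call under each alternative run, except Relb with OGD/R in shAnxa2 cells without shAnxa2-CTRL 3. With a fold of at least 1.5 added, the genes called fell to 4 for OGD/R in shCtrl cells, 1 for OGD/R in shAnxa2 cells and 3 for the line difference after OGD/R. The same limit was passed by 20.1%, 12.1% and 26.3% of all genes. The log2 fold change of Rela with OGD/R in shCtrl cells, near 0, turned to -0.001 with median-of-ratios factors and with DESeq2 and to -0.002 without a filter, and ranged from -0.062 to 0.057 with 1 library left out. Rela between untreated lines ranged from -0.022 to 0.094. The Nfkbie interaction turned to -0.001 with median-of-ratios factors and DESeq2, -0.025 without a filter, -0.015 with 1 CPM and -0.006 with the replicate block, and ranged from -0.082 to 0.132 with 1 library left out. The cause was not tested. With 1 library left out, the genes called numbered 7 to 8 and 2 to 4 for OGD/R in shCtrl and shAnxa2 cells. They numbered 6 and 6 to 8 for the line difference without and after OGD/R, and 5 to 8 for the interaction. In the main fit, shares of all genes higher and lower were 32.4% and 31%, then 28.2% and 26.8% for OGD/R in these lines. These shares were 29.5% and 29.7%, then 33.8% and 34.2% for the line difference, and 34.9% and 35.1% for the interaction.

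The replicate numbers did not pair the libraries: 18 same-number pairs had deviations correlated at -0.078 to 0.184, and 4 of 12 libraries correlated best with their own number. With the replicate block, genes called were 8, 3, 6 and 8 in the 4 comparisons and 6 for the interaction. The shares of all genes given above come from the main fit and not from the fit with the block. In the interaction with the block, Nfkbib (-0.187) reached an adjusted p of 0.0518 in edgeR. Rel with OGD/R in shCtrl cells was not called without a filter (adjusted p = 0.0549), and Rel after OGD/R between lines was not called with only the groups compared (0.0685, edgeR). Depth limits Nfkbie, the 1 gene of the 10 under 10 CPM.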
